A study of Arabidopsis thaliana with 6 samples.

Results

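The nuclear genes of photosynthesis were examined in *Arabidopsis thaliana* root tips, with 48 loci taken from the 33201 rows of the deposited expression table. The members were chosen by gene identity, with earlier results of these data known but no threshold on their values, as the nuclear genes of the light-harvesting antennae (LHCA and LHCB), of photosystem I (PSA) and photosystem II (PSB), of the electron carriers PETC and PETE, and of the Calvin cycle proteins RBCS, RCA, GAPA and GAPB. Each of the 48 loci had a row of its own. Of these, 38 averaged 1 FPKM or more over the 2 genotypes, and are called measured here, 7 were above 0 but under 1 FPKM, and 3 were listed at 0 in both genotypes. FPKM is the number of mapped fragments scaled for transcript length and for the size of the library, so that levels of different genes can be set side by side.

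Root tips about 5 mm long, labelled meristematic root tissue, were taken from seedlings 5 days old. RNA-seq was run on 3 samples of *an3*, a line without AN3 function, and on 3 samples of Columbia (Col), the wild type. AN3 (ANGUSTIFOLIA 3, also called GIF1) is a transcriptional co-activator known for promoting cell proliferation in leaves. No treatment separated the groups, and the allele of the mutant line is not named in the labels. The table gives 1 value per genotype for its 3 samples together, so the spread among replicates is unknown, no difference was tested, and every comparison below is a description. *AN3* itself (AT5G28640), the check of the labels, had 21.5 FPKM in Col against 2.55 FPKM in *an3*, or 11.9% of the Col level.

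Photosystem II takes electrons from water, the cytochrome b6f complex and plastocyanin pass them to photosystem I, and the Calvin cycle spends the resulting ATP and NADPH on fixing carbon dioxide. Chlorophyll-binding antenna proteins feed both photosystems with light energy. Their nuclear genes are among the most abundant transcripts of green leaves, and root tips, whose plastids are mostly not green, are known to transcribe them weakly.

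Many of these proteins are encoded by several similar genes, which matters for how reads are assigned. The coding starts of the *LHCB1* copies, which make the major antenna protein of photosystem II, are shown because their reads can be confused. They were read from RefSeq TAIR10.1 (first 90 bases of *LHCB1.3* and the stretches aligned to it). Capitals mark bases that differ from *LHCB1.3*.
LHCB1.3: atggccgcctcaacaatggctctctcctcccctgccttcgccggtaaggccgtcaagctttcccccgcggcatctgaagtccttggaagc
LHCB1.1: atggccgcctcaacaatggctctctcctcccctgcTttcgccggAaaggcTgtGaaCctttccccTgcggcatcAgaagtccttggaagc
LHCB1.2: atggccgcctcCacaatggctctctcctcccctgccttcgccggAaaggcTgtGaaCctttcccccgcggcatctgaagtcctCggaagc
LHCB1.4: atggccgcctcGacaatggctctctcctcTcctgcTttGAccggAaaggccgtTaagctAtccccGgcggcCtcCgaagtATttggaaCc
LHCB1.5: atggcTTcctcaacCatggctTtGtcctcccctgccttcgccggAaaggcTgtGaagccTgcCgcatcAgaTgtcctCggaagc

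The 3 copies that lie side by side on chromosome 1, *LHCB1.1*, *LHCB1.2* and *LHCB1.3*, were 95.7% to 96.4% identical over the whole coding sequence. *LHCB1.1* differed from *LHCB1.3* at 7 of the bases shown and *LHCB1.2* at 6. The copies on chromosome 2 were further apart. *LHCB1.4* differed from *LHCB1.3* at 14 bases, and *LHCB1.5* at 13 with 6 absent. A full 100-base read would be ambiguous between copies only where 100 bases in a row are identical, and reads shortened by trimming over more sequence. Such stretches made up 4.44% of the 100-base windows of *LHCB1.1* and 1.51% of those of *LHCB1.2*. *LHCB1.3* shared 3.27% of its windows with *LHCB1.1*, and *LHCB1.5* shared 4.23% with *LHCB1.4*. All windows of *LHCB1.5* were also found in AT2G08665, annotated across it on the opposite strand.

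Transcripts of the photosynthesis genes were lower in *an3* than in Col in nearly all measured members. Of the 38 measured members, 36 had a lower value in *an3*, where 50.6% of the 17229 rows averaging at least 1 FPKM did. A difference of at least 1.5-fold was reached by 19 members, all lower in *an3*, against 3.06% of rows lower and 3.89% higher by this size. At least 2-fold lower were 9 members, and 0.778% of rows. *PSAH2* and *LHCB1.2*, in both of these counts, averaged 1 FPKM or more only through their Col values, with under 1 FPKM in *an3*. The median log2 ratio of *an3* over Col, with 0.1 FPKM added to both values, was -0.59 over the members and -0.0034 over those rows. It ranged from -2.90 for *PSAH2* to 0.51 for *PETE1*. Summed over all 48 members, the level was 734 FPKM in Col against 514 FPKM in *an3*, or 69.9% of Col. In bulk root tips, fewer cells that transcribe these genes and less RNA per such cell cannot be told apart.

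**Figure D1:**
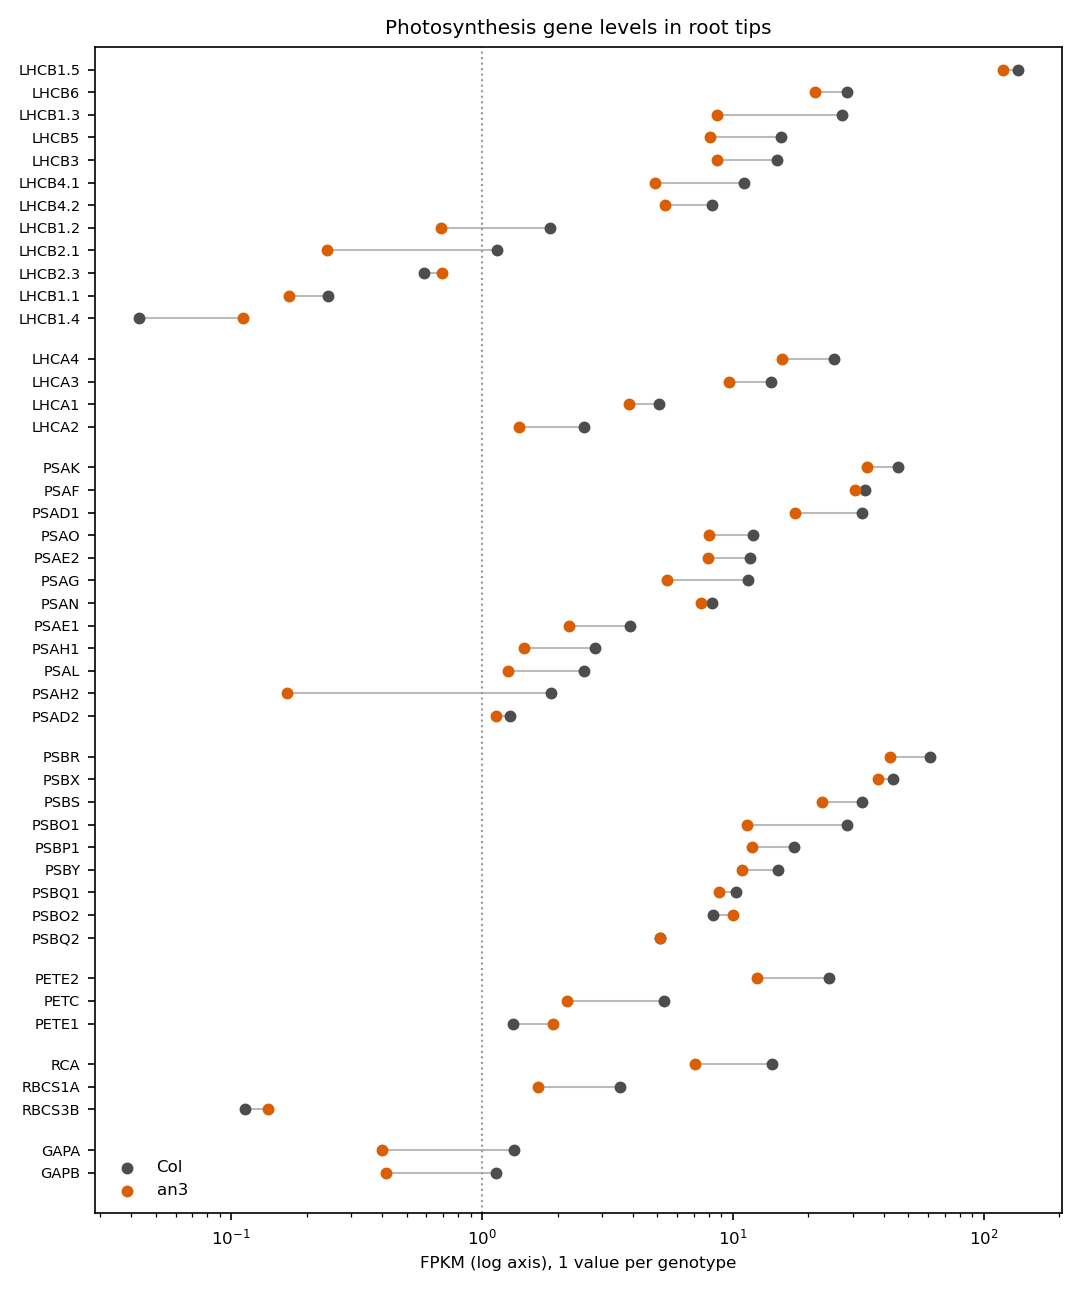
Levels of the members in FPKM (log axis) in Col (grey) and *an3* (orange), 1 authors' value per genotype, grouped by family and ordered by level within a family; the dotted line marks 1 FPKM and members listed at 0 are not drawn. Most orange points lie to the left of the grey ones, with *PSBO2*, *PETE1*, *LHCB1.4*, *LHCB2.3* and *RBCS3B* on the other side. The row of *LHCB1.5*, overlapped in full by AT2G08665, has the highest value in both genotypes at 137 and 119 FPKM.

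The plot of levels by genotype shows how uneven the set was in wild-type root tips. The row of *LHCB1.5* (AT2G34420), overlapped in full by AT2G08665, stood at the top with 137 FPKM in Col, followed by *PSBR* with 61.1 FPKM. In Col, 12 members had at least 20 FPKM, and in *an3* 7 did. At the other end, 5 members were above 1 FPKM in Col and under 1 FPKM in *an3*. Among the Calvin cycle members, the *RBCS*, *GAPA* and *GAPB* genes were low, while *RCA* had 14.4 FPKM in Col. *RBCS1A*, the highest Rubisco small subunit gene here, had 3.55 FPKM in Col.

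The main light-harvesting complex of photosystem II, a trimer of LHCB1, LHCB2 and LHCB3 proteins, showed a wide spread of levels among its genes. *LHCB1.3* (AT1G29930) had 27.1 FPKM in Col against 8.63 FPKM in *an3*, a log2 ratio of -1.64. Its neighbour *LHCB1.2* (AT1G29910) had 1.87 and 0.689 FPKM, a log2 ratio of -1.32. The third neighbour, *LHCB1.1* (AT1G29920), was almost silent at 0.243 and 0.170 FPKM. These near-identical neighbours therefore lay far apart in level within Col. *LHCB1.5* had 137 FPKM in Col against 119 FPKM in *an3*, a log2 ratio of -0.20, while *LHCB1.4* (AT2G34430), next to it on the chromosome, had 0.0428 and 0.112 FPKM. The row that held most of the *LHCB1* signal was thus one of those with the smallest relative difference. The part of AT2G08665, which covers all of *LHCB1.5* on the opposite strand, in this value is not known. The *LHCB2* genes were near the floor, with *LHCB2.1* (AT2G05100) at 1.14 and 0.242 FPKM, *LHCB2.3* (AT3G27690) at 0.586 and 0.695 FPKM, and *LHCB2.2* (AT2G05070) listed at 0 in both. *LHCB3* (AT5G54270) had 14.9 FPKM in Col against 8.68 FPKM in *an3*, a log2 ratio of -0.77.

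Transcripts for the minor antenna proteins, which connect the trimers to the core of photosystem II, were lower in *an3* as well. *LHCB4.1* (AT5G01530), which encodes CP29, had 11.0 FPKM in Col against 4.87 FPKM in *an3* (log2 ratio -1.16). Its paralog *LHCB4.2* (AT3G08940) had 8.26 and 5.35 FPKM (-0.62). *LHCB5* (AT4G10340), for CP26, had 15.6 and 8.13 FPKM (-0.93). *LHCB6* (AT1G15820), for CP24, was the highest of them at 28.5 and 21.3 FPKM and stayed within 1.5-fold (-0.42). Of the 13 *LHCB* genes, 8 were measured, and 6 of these were lower by at least 1.5-fold. Their median log2 ratio was -0.85. The summed *LHCB* level in *an3* was 72.3% of Col with *LHCB1.5* and 53.8% without it.

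The 4 antenna genes of photosystem I, whose proteins form a belt on one side of its core, had a smaller median difference. *LHCA4* (AT3G47470) had 25.3 FPKM in Col against 15.7 FPKM in *an3* (log2 ratio -0.68). *LHCA1* (AT3G54890), whose protein pairs with LHCA4, had 5.07 and 3.86 FPKM (-0.39). *LHCA2* (AT3G61470) had 2.55 and 1.41 FPKM (-0.82), and its partner *LHCA3* (AT1G61520) had 14.2 and 9.64 FPKM (-0.55). The genes of paired proteins thus stood at unlike levels, with *LHCA4* above *LHCA1* and *LHCA3* above *LHCA2* in both genotypes. The median over the 4 genes was -0.62 and their sum in *an3* was 65.0% of Col.

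All 12 photosystem I genes were measured and had a lower value in *an3*, and 6 were lower by at least 1.5-fold, with a median log2 ratio of -0.68. On the stromal side, where ferredoxin docks, *PSAD1* (AT4G02770) had 32.8 FPKM in Col against 17.7 FPKM in *an3* (-0.89) and *PSAE1* (AT4G28750) had 3.89 and 2.21 FPKM (-0.79). *PSAE2* (AT2G20260), the more abundant *PSAE* copy, had 11.7 and 7.94 FPKM (-0.55). On the lumenal side, where plastocyanin docks, *PSAF* (AT1G31330) had 33.5 and 30.5 FPKM (-0.13), and *PSAN* (AT5G64040) had 8.23 and 7.47 FPKM (-0.14). The weakly expressed *PSAD2* (AT1G03130), also for the stromal side, was at 87.8% of its Col level (-0.17), so both sides had genes close to equal levels in both genotypes.

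Genes for the subunits at the edges of photosystem I spanned a wider range. *PSAG* (AT1G55670), which lies between the core and the antenna belt, had 11.4 FPKM in Col against 5.46 FPKM in *an3*, or 47.7% of the Col level. *PSAK* (AT1G30380), at the other end of the belt, was the highest photosystem I gene at 45.5 and 34.4 FPKM (log2 ratio -0.41). The subunits PSAH, PSAL and PSAO form the side where antenna of photosystem II can dock. *PSAL* (AT4G12800) had 2.55 and 1.27 FPKM (-0.95) and *PSAO* (AT1G08380) had 12.0 and 8.06 FPKM (-0.57). *PSAH1* (AT3G16140) had 2.82 and 1.47 FPKM (-0.90). *PSAH2* (AT1G52230) had 1.88 FPKM in Col against 0.167 FPKM in *an3*, the lowest log2 ratio of the set at -2.90. At such low levels the ratio depends on the added constant, and it was -1.31 with 1 FPKM added.

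Photosystem II was represented by 9 genes, of which 8 were lower in *an3* but only *PSBO1* by at least 1.5-fold, and the median log2 ratio was -0.46. *PSBO1* (AT5G66570) encodes the main protein that shields the manganese cluster where water is split, and had 28.6 FPKM in Col against 11.4 FPKM in *an3* (-1.31). *PSBP1* (AT1G06680), for the next protein of this lumenal cap, had 17.4 and 11.9 FPKM (-0.55). The *PSBQ* genes, for the outermost cap protein, were nearly level, with *PSBQ1* (AT4G21280) at 10.3 and 8.77 FPKM and *PSBQ2* (AT4G05180) at 5.13 and 5.11 FPKM. The genes for one cap, with *PSBO2* described below, thus ranged from 40.0% of the Col level to 120.5%. *PSBR* (AT1G79040), needed for stable binding of the cap, had 61.1 and 42.2 FPKM (-0.53). *PSBS* (AT1G44575), the sensor protein for dissipating excess light as heat, had 32.7 and 22.6 FPKM (-0.53). The genes for small membrane subunits, *PSBX* (AT2G06520) with 43.6 and 38.0 FPKM and *PSBY* (AT1G67740) with 15.1 and 10.9 FPKM, were at 87.3% and 72.3% of their Col levels.

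Genes of the electron carriers between the photosystems included some of the larger differences. *PETC* (AT4G03280), the single gene for the Rieske iron-sulfur protein of the cytochrome b6f complex, had 5.31 FPKM in Col against 2.17 FPKM in *an3* (log2 ratio -1.25). Plastocyanin, the copper protein that carries electrons to photosystem I, is encoded by *PETE1* and *PETE2*. *PETE2* (AT1G20340) had 24.1 and 12.5 FPKM (-0.95), whereas *PETE1* (AT1G76100) had 1.33 and 1.92 FPKM (0.51). The minor plastocyanin gene had the highest ratio of the measured members, on a level of under 2 FPKM. Their summed level with *PETC* was 53.9% of Col in *an3*.

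Among the Calvin cycle members, *RCA* (AT2G39730), for the activase that frees Rubisco from bound inhibitory sugars, had 14.4 FPKM in Col against 7.08 FPKM in *an3* (log2 ratio -1.01). *RBCS1A* (AT1G67090), for the small subunit of Rubisco, had 3.55 and 1.67 FPKM (-1.04). The other small subunit genes lie in a cluster on chromosome 5 and were listed at or close to 0, with *RBCS1B* (AT5G38430) and *RBCS2B* (AT5G38420) at 0 in both genotypes and *RBCS3B* (AT5G38410) at 0.114 and 0.140 FPKM. Of the 100-base windows of *RBCS3B*, 12.1% were also found in *RBCS1B*, so some reads from this cluster could not be assigned to 1 copy, while *RBCS2B* shared none. *GAPA* (AT3G26650) and *GAPB* (AT1G42970), for the subunits of the plastid glyceraldehyde-3-phosphate dehydrogenase, had 1.34 and 1.14 FPKM in Col and 0.400 and 0.415 FPKM in *an3*. Both averaged under 1 FPKM and were not counted. Their levels in *an3* were 29.8% and 36.4% of Col.

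Pairs of genes for the same subunit often differed from each other in both level and ratio. *PSBO2* (AT3G50820) had 8.31 FPKM in Col against 10.0 FPKM in *an3* (log2 ratio 0.27), opposite in direction to *PSBO1*. In Col, *PSBO1* was the higher of the pair, while in *an3* both had close to the same level. The starts of their coding sequences are shown because the pair gives the clearest contrast and can be told apart by reads. They are from RefSeq TAIR10.1, and capitals in *PSBO2* mark bases that differ from *PSBO1*.
PSBO1: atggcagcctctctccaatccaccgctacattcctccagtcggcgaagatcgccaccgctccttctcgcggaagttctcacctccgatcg
PSBO2: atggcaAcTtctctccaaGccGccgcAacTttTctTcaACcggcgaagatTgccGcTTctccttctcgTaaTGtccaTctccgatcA

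Over the stretch shown, *PSBO2* differed at 19 bases and lacked 3. The coding sequences as a whole were 83.6% identical, and neither gene shared any 100-base window with another annotated transcript. In the pair *PETE2* and *PETE1*, whose coding sequences were 60.3% identical, the more abundant gene was likewise lower in *an3* and the less abundant one higher. *PSAD1* was lower in *an3* by at least 1.5-fold, while the less abundant *PSAD2* was within it. The more abundant genes *LHCB4.1* and *PSBQ1* likewise had lower ratios than *LHCB4.2* and *PSBQ2*. The order was the other way in *PSAH* and *PSAE*, where the less abundant *PSAH2* and *PSAE1* had the lower ratios.

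**Figure D2:**
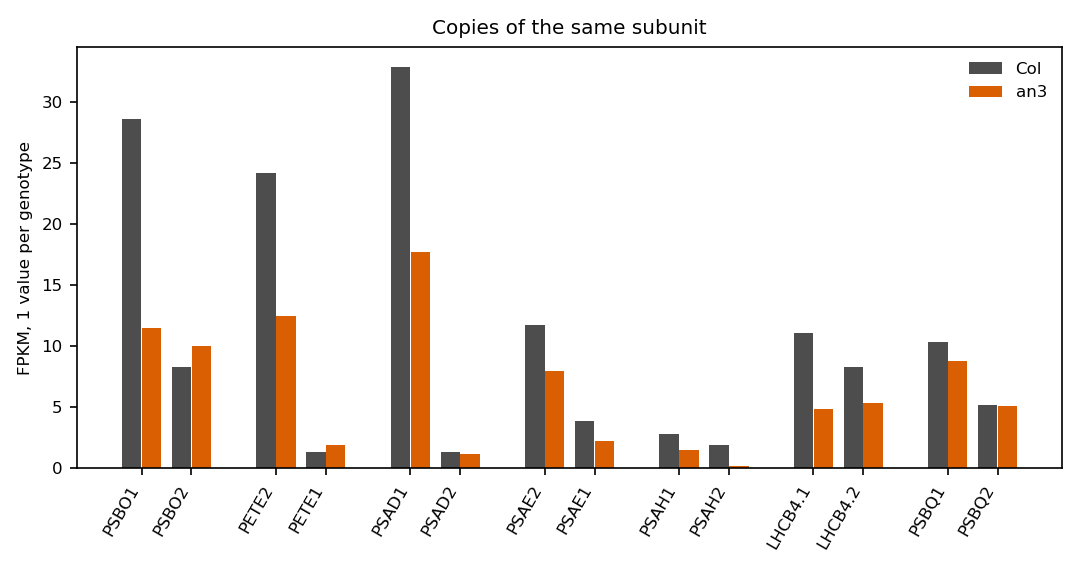
Levels in FPKM of genes that encode the same subunit, in Col (grey bars) and *an3* (orange bars), 1 authors' value per genotype and no error bars since the replicates' spread is not known. *PSBO1* goes from 28.6 to 11.4 FPKM while *PSBO2* goes from 8.31 to 10.0 FPKM, and *PETE2* and *PETE1* show the same crossing of directions.

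Large ratios are more common among weakly expressed genes, so the members were also set against rows of similar level. With a mean of 1 to 5 FPKM, 8 of 11 members were lower by at least 1.5-fold, and 7.04% of the 4632 rows were. Among these 8, *PSAH2* (0.167 FPKM in *an3*) and *LHCB1.2* (0.689 FPKM in *an3*) entered the range only through their Col values. With a mean of 5 to 20 FPKM, 9 of 18 members and 2.38% of the 6105 rows were lower by this size. With a mean of 20 FPKM or more, 2 of 9 members and 0.878% of the 6492 rows were. The 2 members of the top range were *LHCA4* and *PSAD1*. The median log2 ratio of the members was -0.90, -0.59 and -0.42 in these ranges, beside medians between -0.029 and 0.023 for all rows. The members closest to the threshold were *LHCA4* (-0.68) and *LHCB4.2* (-0.62) just past it and *PSAO* (-0.57) and *LHCA3* (-0.55) just short of it.

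**Figure D3:**
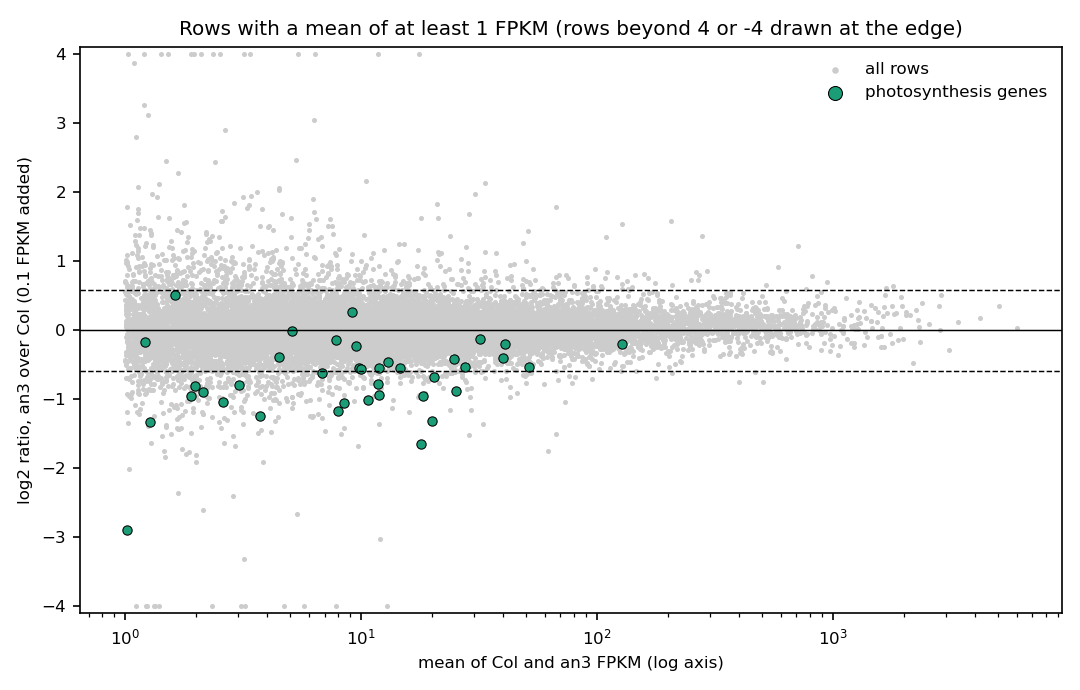
Log2 ratio of *an3* over Col (0.1 FPKM added) against the mean of both genotypes in FPKM (log axis) for the 17229 rows that average at least 1 FPKM (grey) and the 38 photosynthesis genes among them (green); dashed lines mark 1.5-fold. All but *PSBO2* and *PETE1* lie under 0 across the range of levels, and 19 lie under the lower dashed line.

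Transcripts of other genes run across several members in the TAIR10.1 annotation. The table gives 1 value per locus without strand. The paper names the NEBNext Ultra II RNA kit for these libraries and does not call it strand-specific. No source states whether the counting used strand, so reads from such neighbours could be counted with the member. Some 100-base windows were shared with another transcript in 16 members and none in 32. *LHCB1.5* lies entirely within AT2G08665, annotated on the opposite strand, which has no row in the table. Over 20% of the transcript was overlapped from the opposite strand in 7 members, among them *PSAG* with 61.4% and *PSAH1* with 53.3%. The neighbour of *PSAH1*, *ROPGEF13*, was listed at 0 in Col and at 0.0176 FPKM in *an3*. *PSAH2*, the member with the lowest ratio, shares 24.8% of its transcript with *ROPGEF11*, which had 73.7 FPKM in Col against 55.1 FPKM in *an3*. The part of these neighbours in the members' values was not tested. Among the 22 members with neither shared windows nor overlapping exons, a subset chosen after the values were seen, 20 were lower in *an3* and 9 by at least 1.5-fold, and their median log2 ratio was -0.54.

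The regions before the transcription starts were searched for sequence elements known from light-regulated and clock-regulated genes. In the 250 bases upstream of each start in TAIR10.1, on either strand, the G-box core CACGTG, a site bound by light-signalling transcription factors, stood before 9 of the 48 members (18.8%) and before 6.58% of 26691 annotated genes. The I-box core GATAAG stood before 13 members (27.1%) and 12.2% of genes. The element known to be bound by the clock protein CCA1, searched as AACAATCT and AAAAATCT, was found before 6 members (12.5%) and 8.43% of genes. The evening element AAAATATCT was found before none of the members and before 2.39% of genes, and TATAAA before 41.7% of members and 47.7% of genes. No motif contains another, and a match is only a match of letters.

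Members with a G-box core did not form a group of lower ratios. The 7 measured ones had a median log2 ratio of -0.55, with 3 lower by at least 1.5-fold, and the 31 without it had a median of -0.62, with 16 lower. For the I-box core, the medians were -0.62 over 11 genes with it and -0.57 over 27 without. The upstream stretches below are shown for the measured members whose G-box core lies within 150 bases of the start, in windows free of other genes. They come from RefSeq TAIR10.1, end at the base before the annotated start, are written on the gene's strand, and have CACGTG and GATAAG in capitals.
LHCB4.1: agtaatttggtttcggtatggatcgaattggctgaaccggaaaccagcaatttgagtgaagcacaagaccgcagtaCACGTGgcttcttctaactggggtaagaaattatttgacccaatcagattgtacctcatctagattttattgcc
LHCB6: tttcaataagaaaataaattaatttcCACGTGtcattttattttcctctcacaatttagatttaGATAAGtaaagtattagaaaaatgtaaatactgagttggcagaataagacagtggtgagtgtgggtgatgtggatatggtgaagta
LHCA4: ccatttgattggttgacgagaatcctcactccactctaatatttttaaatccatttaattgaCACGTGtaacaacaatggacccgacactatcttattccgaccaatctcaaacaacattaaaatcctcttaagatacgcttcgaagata
PSBQ1: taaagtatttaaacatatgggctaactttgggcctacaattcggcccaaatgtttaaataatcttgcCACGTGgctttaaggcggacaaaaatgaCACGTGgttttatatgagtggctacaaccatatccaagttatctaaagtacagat
PSBQ2: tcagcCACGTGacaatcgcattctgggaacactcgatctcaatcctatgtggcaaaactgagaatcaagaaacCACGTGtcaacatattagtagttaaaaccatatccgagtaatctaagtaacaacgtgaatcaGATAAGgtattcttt

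These windows lie at chr5:208716-208865 on the plus strand for *LHCB4.1*, chr1:5447881-5448030 on the minus strand for *LHCB6*, chr3:17495034-17495183 on the minus strand for *LHCA4*, chr4:11334202-11334351 on the plus strand for *PSBQ1* and chr4:2673244-2673393 on the minus strand for *PSBQ2*. More than 1 G-box core stands before *PSBQ1*, *PSBQ2* and *PSAH2*, which were at 84.9%, 99.5% and 8.85% of their Col levels. These genes have the same number of cores, so they cannot show an order by number.

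Genes of related pathways were counted in the same way, from lists that hold none of the members. Of 9 further genes of electron transport and plastid ATP synthase, 1 was lower by at least 1.5-fold and none higher, with a median log2 ratio of -0.37. The one was *PSBW*, for a small photosystem II subunit, with 5.63 FPKM in Col and 2.96 FPKM in *an3* (-0.91). Of 20 genes for greening and chlorophyll synthesis, 15 were measured, 4 were lower and none higher, with a median of -0.34. The lower ones included *CAO*, for chlorophyll b synthesis (-0.88), *GUN5*, for the large subunit of magnesium chelatase (-0.84), and *CHLG*, for chlorophyll synthase (-0.74). Of 9 rare antenna and antenna-like genes, 6 were measured and 1 was lower, *ELIP2* (-0.59), an early light-induced protein gene, with a median of -0.14.

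Measured genes of carbon metabolism outside the members had smaller median differences. Of 13 other plastid Calvin cycle genes, only 6 were measured, none was lower or higher by 1.5-fold, and the median was -0.09. The 7 under 1 FPKM included 6 with a lower value in *an3*, such as *GAPA-2* at 1.38 and 0.350 FPKM (log2 ratio -1.72), named after its value was seen, and *PRK*, at 0.0280 and 0.163 FPKM, was the other. *RPE*, for ribulose phosphate epimerase, had 16.0 and 11.5 FPKM (-0.48) and *TKL1*, for transketolase, had 193 and 169 FPKM (-0.19). Of 12 photorespiration genes 8 were measured and 1 was lower, *AGT1* (-0.71), for a peroxisomal aminotransferase, with a median of -0.35. The heterotrophic counterparts, genes known from roots, non-green plastids or the cytosol, were nearly level. Most encode isoforms for the same reactions, but some, such as *G6PD2* and *G6PD3*, serve other reactions. Among the 12 counterparts listed, none passed 1.5-fold in either direction, the log2 ratios lay between -0.22 and 0.22, and the median was 0.04. The ferredoxin gene *FD3*, abundant in roots, had 388 FPKM in Col against 410 FPKM in *an3*, and *GAPC1*, for cytosolic glyceraldehyde-3-phosphate dehydrogenase, had 1903 and 1950 FPKM.

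**Figure D4:**
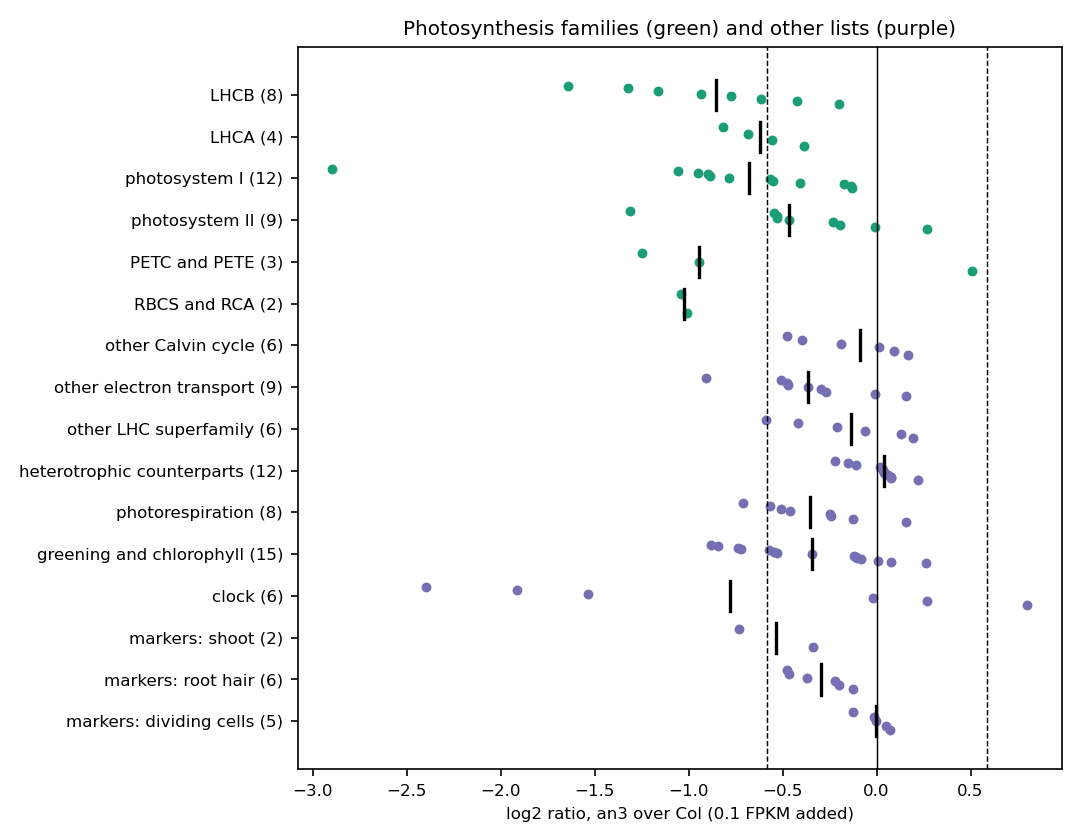
Log2 ratios of *an3* over Col (0.1 FPKM added) for measured genes in each photosynthesis family (green) and in the other lists (purple), with the number of genes in brackets, a black bar at the median and dashed lines at 1.5-fold; points are spread vertically for legibility. The family medians lie between -0.46 and -1.03, while the heterotrophic counterparts centre on 0.04. Medians of the clock genes (-0.78) and of the 2 measured shoot markers (-0.54) lie within the range of the families. Those of the remaining lists lie between -0.37 and 0.04.

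Clock genes and cell type markers were read in the same samples, since photosynthesis genes vary over the day and with tissue. The morning genes *CCA1* (4.89 and 0.847 FPKM, log2 ratio -2.40), *LHY* (6.12 and 1.55 FPKM, -1.91) and *PRR9* (2.19 and 0.688 FPKM, -1.54) were lower in *an3*. Of the 6 clock genes listed, 1 was higher by at least 1.5-fold, *ELF4* (0.80), named here after its value was seen. No source used here gives the time of day at which root tips were collected. Of 12 shoot markers, 6 were listed at 0 in both genotypes, including *STM*, *SPCH*, *FAMA* and *TGG1*, and the summed level of all 12 was 9.04 FPKM in Col against 6.02 FPKM in *an3*. Most of this sum was *CER1*, a wax synthesis gene, at 7.53 and 4.49 FPKM. The other shoot markers above 0 were mixed in direction. *KNAT1* and *LOX2* were lower in *an3*, and *TMM* (0.0822 and 0.356 FPKM), *YAB1* and *CA1* were higher. The carbonic anhydrase gene *CA1*, abundant in leaves and named after its value was seen, had 0.0410 and 0.0550 FPKM. Among 6 root hair markers none passed 1.5-fold, all had a lower value in *an3*, and their sum was 2398 FPKM in Col against 2061 FPKM in *an3*. The 5 markers of dividing cells summed to 52.4 FPKM in both genotypes. The part of the clock genes and of these cell types in the members' values was not tested.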

How the data were processed

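RNA from 3 *an3* and 3 Col root tip samples had been sequenced as single-end reads of 100 bases. The authors processed them with TuxNet, which trims with ea-utils fastq-mcf, aligns with HISAT2 and estimates expression with Cufflinks. For tool versions, genome build and annotation, nothing was given in the sources used here. As deposited, FPKM is the authors' Cufflinks estimate, with 1 value per genotype for its 3 samples, so depth and replicate error are unknown. The authors' own log2 fold changes and q-values for this contrast were not used.

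The log2 ratio (*an3* over Col) was taken after adding a pseudocount of 0.1 FPKM, which understates differences of low genes. Rows averaging at least 1 FPKM over both genotypes (measured) were counted as lower or higher at a 1.5-fold difference. The counting was tested on simulated data. The 48 members and all gene lists were chosen with earlier results of these data known. Every member could be named, and from each list up to 3 measured genes with the largest absolute log2 ratio. *ELF4*, *CA1*, *TMM*, *YAB1*, *LOX2*, *FD3*, *GAPC1*, *GAPA-2*, *PRK*, *ROPGEF11*, *ROPGEF13* and the shoot markers listed at 0 are outside this rule. They were chosen after their values were seen. Sequences, overlaps and motifs were taken from RefSeq TAIR10.1, which may not be the build behind the table, and its coordinates belong to that build alone. No table of protein sequences was used here. The software was Python 3.11.15, pandas 2.3.3, numpy 2.4.6, Biopython 1.88 and matplotlib 3.10.9.

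The alternatives were pseudocounts of 1 and 0.01 FPKM, minimum means of 5 and 0.2 FPKM or none, a 2-fold threshold, ratios rescaled to a median of 0, rows naming a single locus, and leaving out the near-identical LHCB1 and RBCS copies. Leaving out members with shared windows or overlapping exons was added after the data had been seen.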

Additional observations from a re-analysis of the deposited data

How the results depend on the processing

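The number of members lower in *an3* by at least 1.5-fold was 19 as reported, 11 with a minimum mean of 5 FPKM, 9 at a 2-fold threshold, and 9 among the members with neither shared windows nor overlapping exons, an alternative chosen after seeing the data. Fewer genes or a stricter threshold make such counts smaller by construction. With the other settings it was between 16 and 22, no member was higher in any, and the median log2 ratio lay between -0.53 and -0.62. At 2-fold, 0 genes remained lower in the lists of other electron transport, other antenna-like genes, photorespiration, greening and shoot markers, and 0 clock genes higher. Ratios of single genes were compared between settings at a change of 1.5-fold. With 1 FPKM added, the log2 ratio was -0.79 for *LHCB2.1*, -1.31 for *PSAH2*, -0.74 for *GAPA* and -0.60 for *GAPB*, and that of *LHCB1.4*, under 1 FPKM in both genotypes, rose with 0.01 FPKM added. Another pseudocount cannot change the sign of a ratio, since the same constant is added to both values. The rescaling subtracted a median of -0.0034, too small to change the sign of any of the 45 members above 0. No paired analysis was possible because the table holds 1 value per genotype. For the same reason, leaving out each replicate, a limma fit and the replicate block were not run, and replicate spread and depth limit every value.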
